A study of Mus musculus with 4 samples.

Results

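The AP-1 family genes described here are *Fos*, *Fosb*, *Fosl1*, *Fosl2*, *Jun*, *Junb*, *Jund*, *Atf3* and *Jdp2*. They are 9 of the 27998 genes counted in the series and were taken by name. Satellite cells of hindlimb muscle were profiled by 10X 3′ single-cell RNA sequencing in 4 libraries, 1 for each strain, and each library held the sorted cells of 2 pooled mice. The B10 library came from C57/Bl10ScsSn mice of 15 weeks, and the *mdx* library from C57BL/10ScSn-Dmdmdx mice of 11 weeks, which carry the *Dmd* mutation on that background. The DBA library came from DBA/2 mice of 13 weeks, and the D2-*mdx* library from D2.B10-Dmdmdx mice of 14 weeks, the same mutation on the DBA/2 background. All cells went through enzymatic dissociation and sorting, there is no undissociated sample, and induction during isolation and in the animal cannot be told apart. Strain, age and library cannot be told apart either.

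AP-1 is a dimeric transcription factor of the basic leucine zipper class. Fos proteins bind DNA only with a partner, usually a Jun protein, while Jun proteins can also pair with each other, and ATF3 and JDP2 join the same network and often act as repressors. *Fos*, *Fosb*, *Jun*, *Junb* and *Atf3* are immediate-early genes, switched on within minutes by MAP kinase signalling from existing factors, and muscle dissociation is a well-known trigger. *Fosl1*, which encodes FRA-1, is a later member that responds to sustained ERK signalling and lacks the strong transactivation domain of FOS.

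In the GENCODE annotation of GRCm38, *Fos* lies at chr12:85473890-85477273 on the plus strand and *Jdp2* at chr12:85599027-85639878, also on the plus strand. *Fosb* lies at chr7:19302696-19310051 (minus), *Fosl1* at chr19:5447547-5455946 (plus) and *Fosl2* at chr5:32135801-32157842 (plus). *Jun* lies at chr4:95049034-95052222 (minus), *Junb* at chr8:84974484-84978718 (minus), *Jund* at chr8:70698949-70700616 (plus) and *Atf3* at chr1:191170296-191218039 (minus). Promoter windows from RefSeq (GRCm38.p6) were matched for 8 of the 9 genes, all but *Fosl1*. The 250 bases before the start are shown for *Atf3*, *Junb* and *Fos*, which had the steepest mean rise along the immediate-early index described further on, and for *Jun*, whose window holds an AP-1-like element. Capitals mark the cAMP-response core TGACG on either strand, and TGACATCA, the AP-1-like element of the *Jun* promoter. The windows are chr12:85473640-85473889 (*Fos*, plus strand), chr4:95052223-95052472 (*Jun*, minus), chr8:84978749-84978998 (*Junb*, minus) and chr1:191183334-191183583 (*Atf3*, minus, inside the annotated gene).
Fos: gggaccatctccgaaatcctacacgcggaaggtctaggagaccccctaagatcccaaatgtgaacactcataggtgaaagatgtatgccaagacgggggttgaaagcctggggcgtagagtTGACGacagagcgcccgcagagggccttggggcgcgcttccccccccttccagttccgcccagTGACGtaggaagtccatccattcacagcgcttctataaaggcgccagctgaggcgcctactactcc
Jun: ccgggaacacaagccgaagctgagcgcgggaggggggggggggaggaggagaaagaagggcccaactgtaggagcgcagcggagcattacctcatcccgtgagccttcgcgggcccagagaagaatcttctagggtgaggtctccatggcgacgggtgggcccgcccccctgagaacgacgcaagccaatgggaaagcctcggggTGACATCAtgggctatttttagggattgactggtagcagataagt
Junb: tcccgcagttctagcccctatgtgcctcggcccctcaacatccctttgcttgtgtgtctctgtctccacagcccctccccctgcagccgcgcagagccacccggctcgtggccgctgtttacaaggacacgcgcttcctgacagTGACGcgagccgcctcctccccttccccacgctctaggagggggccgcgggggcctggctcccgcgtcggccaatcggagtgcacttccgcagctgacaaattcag
Atf3: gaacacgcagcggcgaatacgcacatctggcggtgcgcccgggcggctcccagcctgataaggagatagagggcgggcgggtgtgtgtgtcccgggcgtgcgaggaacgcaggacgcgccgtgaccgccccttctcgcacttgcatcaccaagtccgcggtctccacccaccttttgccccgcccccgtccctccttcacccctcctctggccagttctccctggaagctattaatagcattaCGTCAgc

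The *Fos* window held TGACG from -129 to -125 and from -66 to -62 relative to the start, with a TATAAA at -33 to -28. *Fosb* held TGACG from -60 to -56, *Junb* from -106 to -102 and *Atf3*, on the opposite strand, from -7 to -3, while 1 of the 3 *Jdp2* windows held it at -114 to -110. The *Jun* window held TGACATCA from -45 to -38. Of 32851 promoter windows of this length, 17.8% held TGACG, 2.93% held TGACATCA and 12.4% held TATAAA on either strand. TGACTCA, the classical AP-1 site, is in 4.46% of all windows, the full palindrome TGACGTCA (which contains TGACG) in 1.55% and the CArG box in 1.47%, and none of these 3 letter patterns is in a member's window. Sequence further upstream was not searched. The *Fosl2* and *Jund* windows held none of the motifs searched. The *Fosl2* window (chr5:32136222-32136471) lies inside the annotated gene. The *Jund* window (chr8:70697489-70697738) ends well upstream of the annotated start and does not adjoin it.

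After filtering, the B10, *mdx*, DBA and D2-*mdx* libraries kept 4581, 6313, 3279 and 5756 cells, of which 4418, 4820, 2699 and 4182 were myogenic, with 30112218 to 40374016 UMIs summed per library. Median UMIs per kept cell ran from 6666 to 10434, and the libraries shared 3 to 8 cell barcodes in each pairing. Levels are given as CPM, the UMIs of a gene scaled to the same total in every group of cells. *Dmd* stood at 324 CPM in the B10 library and 287 in the DBA library, and at 120 and 94.4 in the *mdx* and D2-*mdx* libraries, the direction the labels give. *Pax7*, the defining satellite cell marker, was at 424 to 907 CPM in every library. The B10 library stood apart by its 4739 barcodes with under 1000 genes, against 11 to 21 in the other libraries. With 1 library a strain there is no test of strain or dystrophy, and intervals below are 95% and cover counting error only. A UMI marks 1 captured 3′ end, so levels of different genes were compared without length scaling.

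The 9 members together made up 2.85%, 2.34%, 2.49% and 2.50% of the myogenic UMIs of B10, *mdx*, DBA and D2-*mdx*, and 5 genes carried nearly all of it. *Fos*, the founding member, was at 8761, 8006, 7114 and 8909 CPM in that order. *Jun* was at 7683, 6213, 7883 and 6608 CPM. *Fos* was the higher of this pair in 3 libraries and *Jun* in DBA.

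*Jund*, the member usually described as constitutive, was at 4382, 3816, 3559 and 3254 CPM. *Junb* was at 3786, 3208, 3143 and 3807 CPM, so its range across libraries was narrow. *Fosb* was at 3357, 1507, 2902 and 1921 CPM, with both dystrophic libraries below both healthy ones.

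*Atf3* was an order lower, at 469, 490, 193 and 400 CPM, with DBA alone below the others. *Fosl2* was at 51.0, 51.6, 52.8 and 41.2 CPM, and its intervals overlapped in all libraries but D2-*mdx*. *Jdp2*, a repressor of AP-1 sites, was at 42.1, 61.7, 34.1 and 57.5 CPM, higher in both dystrophic libraries. *Fosl1* was at 0.401 CPM in B10 (0.229 to 0.651, 16 UMIs) and 0.598 in DBA (0.354 to 0.945, 18 UMIs). The dystrophic libraries had 11.8 (*mdx*, 10.8 to 12.9, 476 UMIs) and 15.1 (D2-*mdx*, 13.9 to 16.5, 528 UMIs). It was the scarcest member in every library and the one with the widest gap between healthy and dystrophic.

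**Figure D1:**
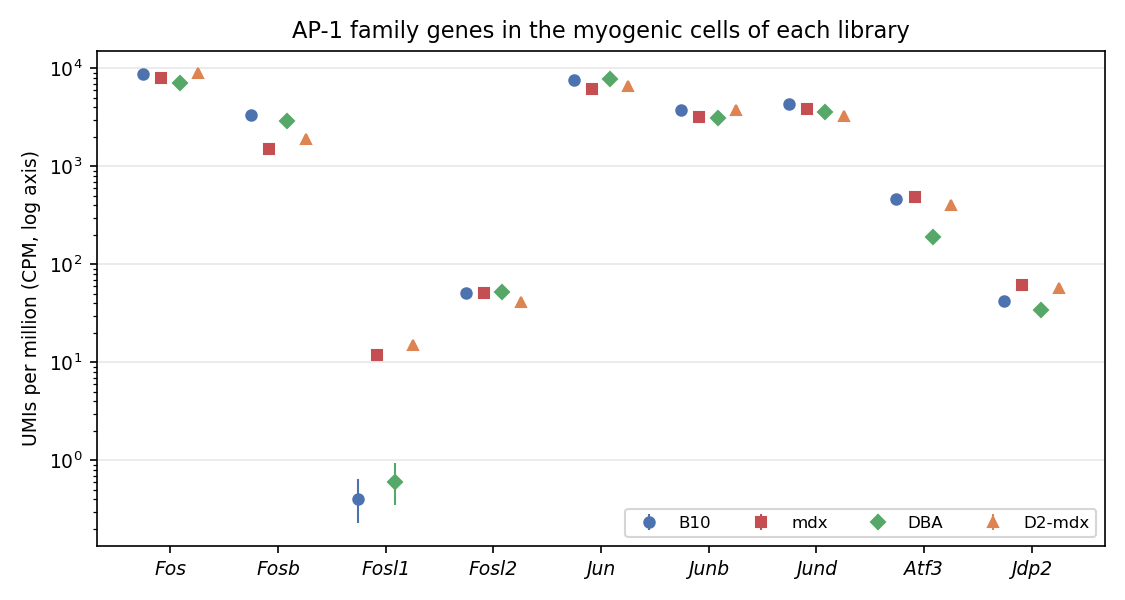
CPM (log axis) of each member in the myogenic cells of each library, 1 point a library with its 95% Poisson interval, which is smaller than the point for most. *Fosl1* sits at 0.401 and 0.598 CPM in the healthy libraries and 11.8 and 15.1 in the dystrophic ones, while *Fos* stays between 7114 and 8909.

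To set members that rise with other immediate-early genes apart from the rest, myogenic cells were ranked by an immediate-early index. The index was the summed UMIs of 18 other immediate-early genes (*Egr1*, *Ier2*, *Btg2* and others, no AP-1 member) in cells thinned to 3000 UMIs. Whether isolation or the animal raised it cannot be told, and it also differed between myogenic states. Cells were divided into a low, a middle and a high part at 18 and 49 index UMIs a cell, values that split the 4 libraries, weighted equally, into 3 equal parts, and 20.1% to 32.3% of a library's cells lay within 5 UMIs of a dividing value. The median index of B10, *mdx*, DBA and D2-*mdx* cells was 40, 30, 28 and 36. The high part held 1837 of 4418, 1664 of 4820, 540 of 2699 and 1503 of 4182 cells, and 39 B10 cells had too few UMIs to be ranked.

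From the low to the high part 6 of the 9 members rose at least 2-fold in each of the 4 libraries (*Fos*, *Fosb*, *Jun*, *Junb*, *Jund* and *Atf3*). Of 7118 genes with at least 10 CPM in every library, 1.15% did so, index genes included. *Atf3* had the steepest slope, from 39.5 to 855 CPM (B10), 60.7 to 1305 (*mdx*), 23.8 to 488 (DBA) and 59.7 to 964 (D2-*mdx*), with log2 ratios of 4.01 to 4.44. *Junb* followed at log2 ratios of 2.73 to 3.81, *Fos* at 2.44 to 3.71 and *Fosb* at 2.17 to 3.56. *Jund* and *Jun* were the shallowest of the 6, at 1.92 to 3.05 and 1.79 to 3.04. For these 6 genes the lowest value was always in DBA except for *Atf3*, whose lowest was in D2-*mdx*.

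The other 3 members behaved differently from these. *Fosl2* was higher in the high part of each library, with log2 ratios of 1.32, 2.10, 0.64 and 1.71 for B10, *mdx*, DBA and D2-*mdx*, and missed the 2-fold mark in DBA. *Jdp2* was nearly flat, at 0.19, 0.37, 0.02 and 0.51, and the DBA interval (-0.24 to 0.28) included no change. *Fosl1* ran the opposite way, from 16.5 CPM in the low part to 4.05 in the high part in *mdx* and from 30.2 to 1.63 in D2-*mdx*. In B10 and DBA it had 16 and 18 UMIs in all, 11 and 13 of them in the low part. The fall of *Fosl1* was smaller within the main myogenic state, the MuSC-like cells described further on. Its lowest log2 ratio over the 4 libraries was -0.45 there, beside -4.21 over all myogenic cells. Over single thinned cells the Spearman correlation of *Fosl1* with the index was -0.01, -0.07, -0.02 and -0.13 in B10, *mdx*, DBA and D2-*mdx*. When cells were ranked by 8 heat shock genes, *Fosb*, *Jun*, *Jund* and *Atf3* still passed 2-fold in each library, while the lowest log2 ratio of *Fos* was 0.91 and of *Junb* 0.92.

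**Figure D2:**
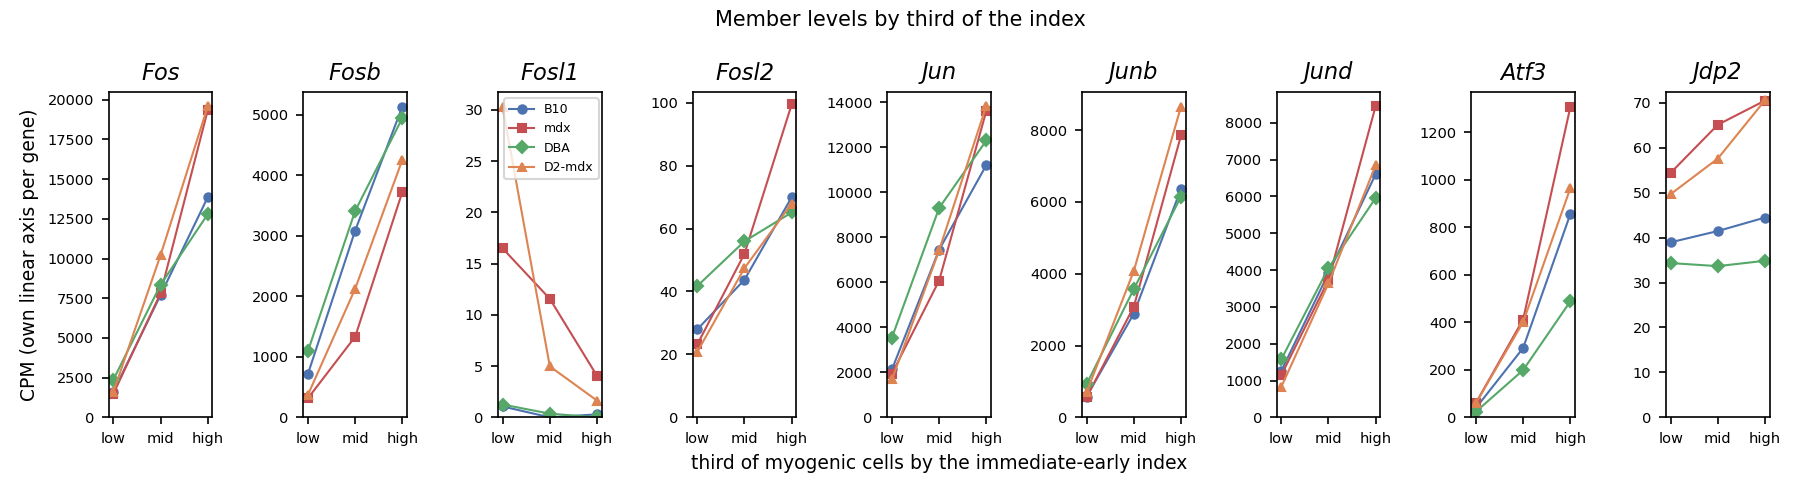
CPM of each member (linear axis, own scale per gene) in the low, middle and high part of myogenic cells by the immediate-early index, 1 line a library. The lines of *Fos*, *Fosb*, *Jun*, *Junb*, *Jund* and *Atf3* climb in each library, *Jdp2* keeps 2 separate levels (33.6 to 44.5 CPM healthy, 49.7 to 70.5 dystrophic), and *Fosl1* falls from 30.2 to 1.63 in D2-*mdx*.

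Each dystrophic library was then compared with its own healthy background. In *mdx* over B10, 2 of the 9 members differed at least 2-fold with an interval excluding no change. *Fosl1* was 29.4-fold higher (log2 4.88, interval 4.16 to 5.70) and *Fosb* lower at log2 -1.16 (-1.17 to -1.14). Over 8477 genes, 4.70% passed the same mark upward and 5.19% downward. In D2-*mdx* over DBA 2 members also passed. *Fosl1* was 25.3-fold higher (log2 4.66, 3.99 to 5.43) and *Atf3* 2.07-fold higher (log2 1.05, 1.01 to 1.10), where 5.80% of 8500 genes passed upward and 5.84% downward. *Fosl1* was thus the 1 member past the mark in the same direction in both pairs, which share no library. Of 8161 genes, 3.42% passed upward in both and 3.16% downward. With 0.401 CPM in B10 and 0.598 in DBA, *Fosl1* met the 10 CPM entry only through the dystrophic libraries, which fixes its direction.

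The remaining members moved by less than 2-fold. *Jdp2* was higher in both pairs, at log2 0.55 (0.46 to 0.64) and 0.75 (0.65 to 0.86). *Jun* was lower in both, at -0.31 and -0.25, as was *Jund* at -0.20 and -0.13, and *Fosb* in the second pair at -0.60. As a mean over cells of UMIs per 10000, *Jun* was at 0.04 and 0.07 and *Jund* at 0.14 and 0.20, so their direction turned. *Fos* went from -0.13 in the first pair to 0.32 in the second, and *Junb* from -0.24 to 0.28. *Fosl2* was at 0.02 (-0.07 to 0.11) and -0.36. The median log2 ratio of the 9 members was -0.13 in the first pair and 0.28 in the second, beside -0.03 and -0.07 over all genes.

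**Figure D3:**
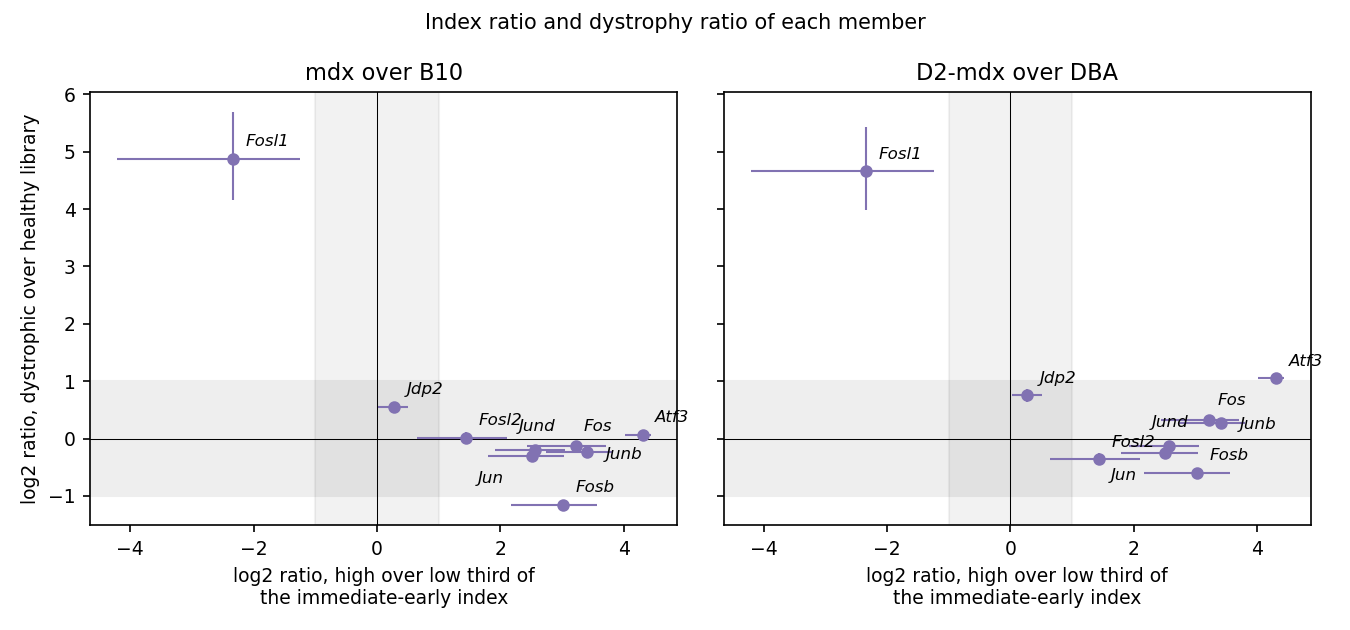
For each member, the log2 ratio of the high to the low part of the immediate-early index (x axis, mean and range over 4 libraries) against the log2 ratio of dystrophic to healthy library (y axis, with 95% counting interval), 1 panel a pair, with grey bands for less than 2-fold. *Fosl1* lies alone at the upper left of both panels (4.88 and 4.66), and the 6 index-following members lie at the right between -1.16 and 1.05.

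The mix of cells differed between the libraries being compared, so each pair was also read within states. MuSC-like cells (named from *Pax7*, *Myf5*, *Calcr* and related markers) made up 94.7% and 94.4% of the myogenic cells of the healthy libraries (B10, DBA) and 66.8% and 69.6% of those of the dystrophic ones (*mdx*, D2-*mdx*). Within MuSC-like cells *Fos*, *Jun*, *Junb* and *Jund* were higher in the dystrophic library of both pairs. *Fos* was at 8861 CPM in B10 and 12089 in *mdx* (log2 0.45), and at 7341 in DBA and 13938 in D2-*mdx* (0.92). *Junb* was at log2 0.35 and 0.88, *Jund* at 0.36 and 0.46, and *Jun* at 0.28 and 0.34.

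*Jdp2* in MuSC-like cells was at 41.6, 68.1, 33.7 and 66.6 CPM in the order B10, *mdx*, DBA and D2-*mdx*, which is log2 0.71 and 0.98 for the pairs. *Fosb* stayed lower in *mdx* at -0.48 and was level in D2-*mdx* at 0.05. The sign of the pooled difference of *Fos*, *Junb*, *Jun* and *Jund* in *mdx* over B10 therefore turned within the main state taken whole. The index moved with them, with a median of 41 in B10 and 46 in *mdx*, and of 29 in DBA and 49 in D2-*mdx*, in MuSC-like cells. Its part in those differences was not tested. The clusters that make up the MuSC-like cells did not all show the turn in *mdx* over B10. *Jun*, *Junb* and *Jund* summed to 22967 CPM in B10 and 30542 in *mdx* in cluster 0, and to 5152 and 7149 in cluster 1. In cluster 2 they were level, at 16362 and 16466. Cluster 6 gave 14544 and 20654, and cluster 8 went the other way, at 18457 and 16650.

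Cells of like index were compared next. *Fosl1* was higher in both pairs in each part. In the low part 11 UMIs in B10 stood against 298 in *mdx* (15.5-fold). The middle part had 0 against 135 (47.1-fold when 3 UMIs are taken for 0) and the high part 5 against 43 (13.9-fold). For D2-*mdx* over DBA the counts were 461 against 13 (24.2-fold), 52 against 5 (14.0-fold) and 15 against 0 (3.09-fold, again taking 3 for 0). No other member passed 2-fold in the same direction in both pairs in all 3 parts. The D2-*mdx* level in the high part, 1.63 CPM, was close to the 1.73 CPM (1.10 to 2.60) of that library's non-myogenic cells.

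*Jdp2* was also higher in each part in both pairs, by log2 0.48, 0.65 and 0.66 in *mdx* over B10 and 0.53, 0.78 and 1.02 in D2-*mdx* over DBA. *Fosb* was lower in each part, by -1.19, -1.21 and -0.46 in the first pair and -1.56, -0.68 and -0.22 in the second. *Atf3* was higher in each, by 0.62, 0.50 and 0.61 and by 1.32, 1.01 and 0.98. *Fos* had no common direction, at -0.12, 0.02 and 0.48 in the first pair and -0.57, 0.29 and 0.61 in the second.

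*Fosl1* was concentrated in few cells. UMIs were found in 232 of 4820 myogenic cells in *mdx* and 236 of 4182 in D2-*mdx*, against 11 of 4418 in B10 and 11 of 2699 in DBA, and no cell held more than 11. Of the *mdx* UMIs 65.3% and of the D2-*mdx* UMIs 52.3% came from 1 cluster with 4.07% of each library's myogenic cells. That cluster scored highest for cycling progenitor (0.92). It was left unnamed, since no fixed cell type marker was among its 10 leading genes, and is called Esm1/Cdc6-led here. Its leading genes included the replication genes *Cdc6*, *Ung*, *Hells*, *Chaf1b* and *Uhrf1*, the EGF receptor ligand *Areg* and the matrix gene *Tnc*. *Fosl1* was itself the second leading gene, although no member entered the features used for clustering, so its level there is a description of that cluster. At resolution 0.2 no such cluster was set apart. The highest mean *Fosl1* level over libraries then lay in cycling progenitor-like cells, at 43.0 CPM.

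In the Esm1/Cdc6-led cells *Fosl1* was at 140 CPM in *mdx* (125 to 156) and 120 in D2-*mdx* (107 to 136), with a UMI in 61.2% of 196 cells (median 10001 UMIs a cell) and 54.1% of 170 cells (12582). Thinned to 3000 UMIs a cell, the shares were 33.7% and 28.2%, beside 0.268% and 0.699% of the non-myogenic cells of the same libraries. The same cluster held 24 cells of B10, at 17.2 CPM (6.90 to 35.3, 7 UMIs), and 30 of DBA, at 13.3 CPM (5.33 to 27.3, 7 UMIs). These UMIs lay in 3 of the B10 cells (12.5%) and 4 of the DBA cells (13.3%). The intervals take each UMI as independent and leave out such clumping. The dystrophic cells were 8.14-fold (log2 3.03, 1.97 to 4.35) and 9.08-fold (log2 3.18, 2.12 to 4.51) higher than the healthy cells of this cluster. In the same cells *Fos* was lower in the dystrophic libraries at log2 -1.11 and -0.74, *Jun* at -1.01 and -1.07 and *Fosb* at -2.27 and -1.24, while *Atf3* was at -0.26 and 1.52. *Cdc6* did not share that gap, at 36.8 and 41.7 CPM in the B10 and DBA cells and 21.6 and 31.9 in the *mdx* and D2-*mdx* cells. *Esm1*, in contrast, had 0 UMIs there in both healthy libraries and stood at 244 CPM in *mdx* and 141 in D2-*mdx*.

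Cycling progenitor-like cells came next for *Fosl1*, at 24.2 CPM in *mdx* (18.3 to 31.6) and 39.3 in D2-*mdx* (34.0 to 45.1). In 24 DBA cells of this state it was at 12.9 CPM (4.18 to 30.04, 5 UMIs), and B10 had 6 such cells, too few for a value. MuSC-like cells stood at 3.95 CPM in *mdx* (3.13 to 4.92) and 1.69 in D2-*mdx* (1.15 to 2.40), DMD-enriched-like cells at 2.06 and 2.12, and differentiating myocyte-like cells at 1.59 and 1.85. The intervals of these last 3 states overlapped in D2-*mdx*, and all 3 overlapped the non-myogenic level of 1.73 CPM. In *mdx* the non-myogenic level was 0.889 CPM (0.444 to 1.59), below the MuSC-like interval. Non-myogenic cells of B10 and DBA held 0 *Fosl1* UMIs, with upper interval bounds of 2.18 and 0.534 CPM. The part of free RNA in these low levels was not tested. Without the Esm1/Cdc6-led cells *Fosl1* remained higher at log2 4.25 (3.29 to 5.40) and 4.38 (3.51 to 5.40). Of the D2-*mdx* UMIs left, 203 lay in cycling progenitor-like cells, which were 7.68% of its myogenic cells against 0.889% in DBA. With MuSC-like cells only the ratios were log2 4.03 and 3.24, resting on 9 UMIs in B10 and 5 in DBA.

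*Fos* and *Jun* were lowest in the states where *Fosl1* was highest. *Fos* in *mdx* ran from 12089 CPM in MuSC-like and 8116 in immunomyoblast-like cells through 4635 in DMD-enriched-like and 3927 in differentiating myocyte-like cells to 1705 in Esm1/Cdc6-led and 1116 in cycling progenitor-like cells. D2-*mdx* gave 13938, 10100, 4796, 4569, 2100 and 1222 CPM in the same order. *Jun* in *mdx* gave 9388, 7027, 3462, 2811, 1840 and 1145 CPM. Averaged over the libraries with at least 20 cells of a state, 7 of the 9 members peaked in MuSC-like cells among the myogenic states, and *Fosl1* and *Jdp2* did not. B10 alone differed, with these 7 members higher in its 111 immunomyoblast-like cells (*Fos* 10772 CPM, index median 53) than in its MuSC-like cells (8861 CPM, 41). The index ran alongside, with an *mdx* median of 46 in MuSC-like, 32 in immunomyoblast-like, 16 in DMD-enriched-like, 10 in Esm1/Cdc6-led and 3 in cycling progenitor-like cells, and its part in this order was not tested.

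*Jdp2* in *mdx* ran from 25.4 CPM in differentiating myocyte-like cells to 70.5 in cycling progenitor-like cells, with 63.6 in DMD-enriched-like and 68.1 in MuSC-like cells. D2-*mdx* had the same lowest state at 25.8 CPM. Healthy differentiating myocyte-like cells were at 41.4 CPM in B10 (47 UMIs) and 30.9 in DBA. The DBA value rests on 31 UMIs and is close to the 25.8 CPM of D2-*mdx* (70 UMIs). Among the myogenic states of the dystrophic libraries, *Fosl2* was lowest in cycling progenitor-like cells, at 14.5 CPM in *mdx* and 18.6 in D2-*mdx*. The 24 DBA cells of this state did not share that, at 43.8 CPM (17 UMIs), above the 38.8 CPM of DBA differentiating myocyte-like cells (39 UMIs).

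As FOS proteins need a partner, the make-up of the family was also read by state. The late members *Fosl1* and *Fosl2* were 0.51% of all UMIs of the 4 Fos genes in *mdx* MuSC-like cells and 0.33% in D2-*mdx*. In Esm1/Cdc6-led cells they were 7.90% and 5.29%, and in cycling progenitor-like cells 2.89% and 3.82%. In the Esm1/Cdc6-led cells of B10 and DBA the share was 1.06% and 1.14%. Fos gene UMIs per Jun gene UMI stayed between 0.69 and 0.80 in the pooled myogenic cells of the 4 libraries.

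**Figure D4:**
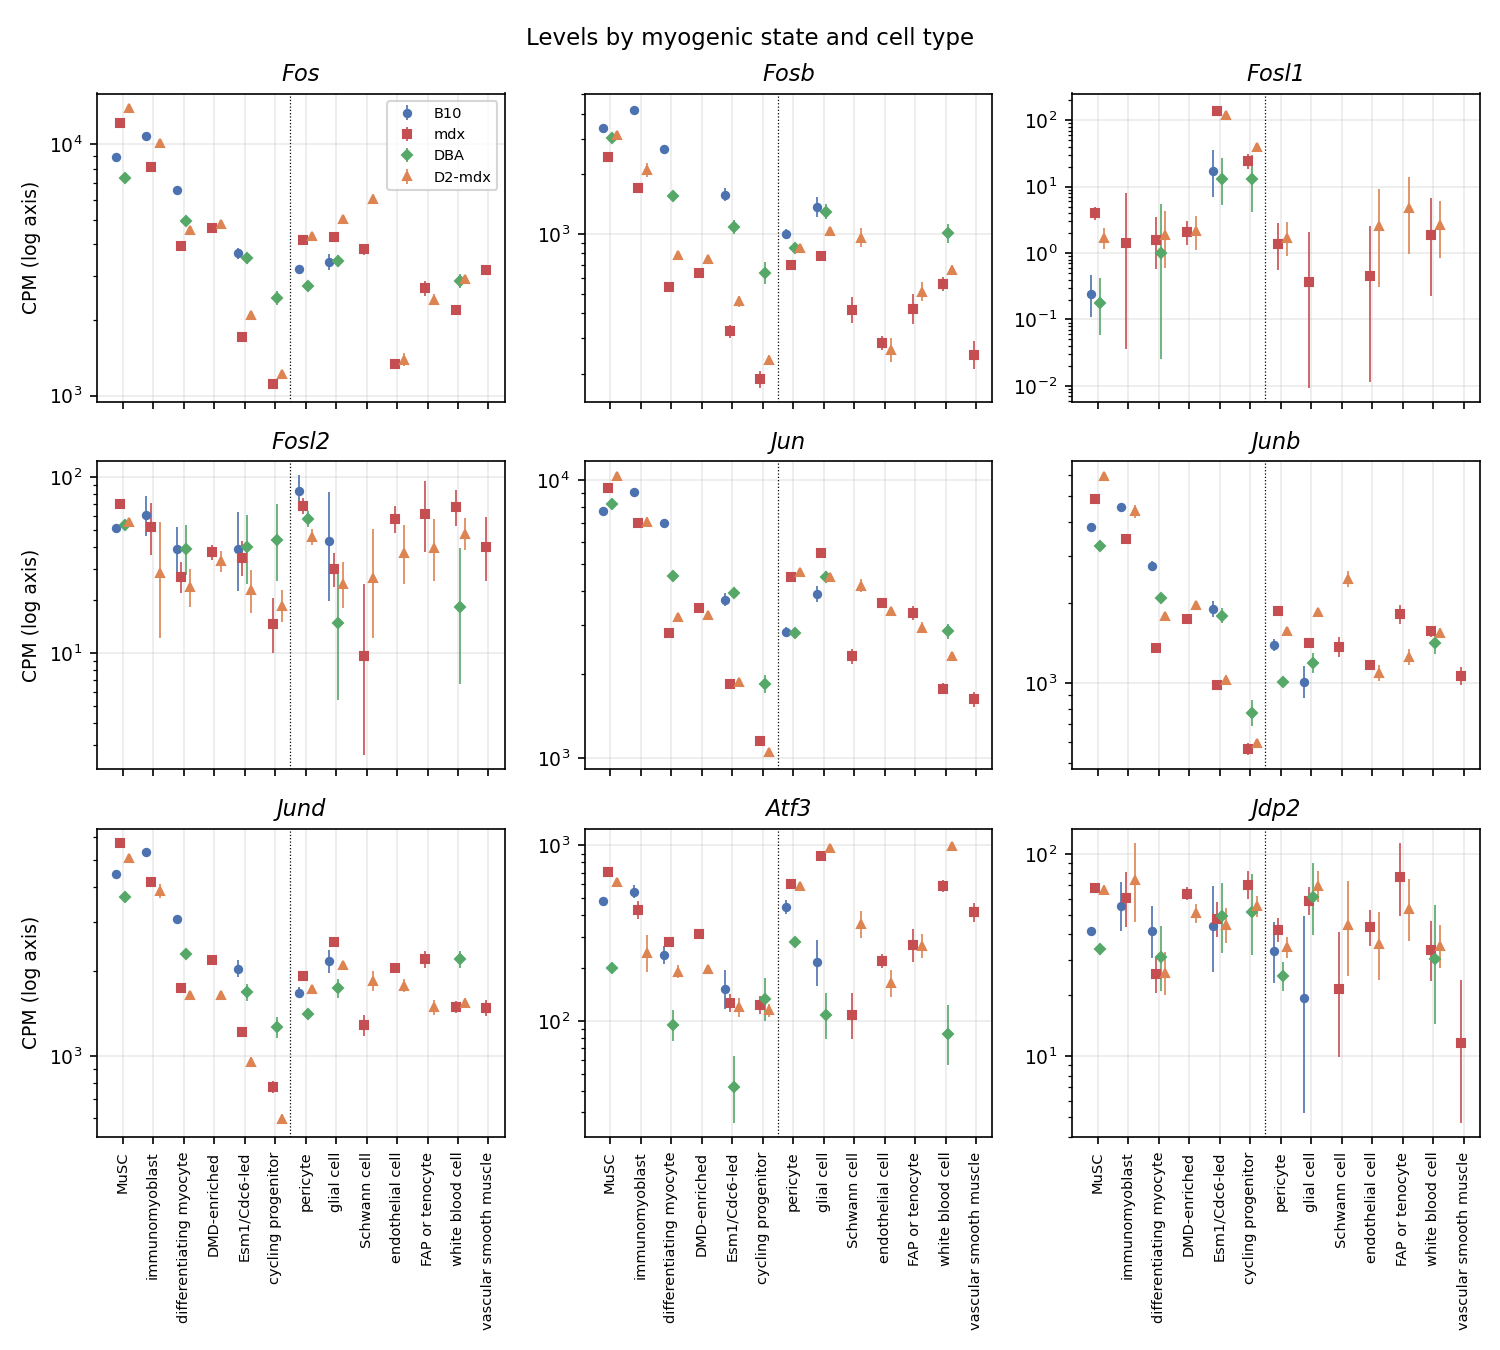
CPM (log axis) of each member in myogenic states (left of the dotted line) and non-myogenic cell types (right), 1 point for each library with at least 20 cells of the class and at least 1 UMI, with 95% Poisson intervals (FAP, fibro-adipogenic progenitor). *Fosl1* peaks at 140 and 120 CPM in the Esm1/Cdc6-led cells of *mdx* and D2-*mdx*, where *Fos* is down to 1705 and 2100.

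*Fos*, *Fosb*, *Jun*, *Junb* and *Jund* were lower in non-myogenic than in myogenic cells of each library, while *Atf3* was at 329, 558, 252 and 663 CPM there, above the myogenic level in all libraries but B10. *Fos* in pericyte-like cells was at 3195, 4139, 2740 and 4316 CPM in B10, *mdx*, DBA and D2-*mdx*, and in glial-like cells at 3409, 4265, 3428 and 5034. It was higher in the dystrophic library of each pair in both types, by log2 0.37 and 0.66 in pericyte-like and 0.32 and 0.55 in glial-like cells. *Junb* in pericyte-like cells was higher by 0.43 and 0.64, and *Jun* by 0.66 and 0.74. Endothelial-like cells were set apart by their balance, with *Fos* at 1330 CPM in *mdx* and 1387 in D2-*mdx* against *Jun* at 3618 and 3368. Their Fos gene UMIs per Jun gene UMI were 0.24 and 0.27.

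*Atf3* was high in some non-myogenic cells, at 965 CPM in glial-like and 992 in white blood cell-like cells of D2-*mdx*, against 108 and 84.6 in those of DBA. In *mdx* the same types were at 876 and 591 CPM. Within myogenic cells DBA was the low library, at log2 -1.28 (-1.32 to -1.24) against B10, and it was also lower in differentiating myocyte-like cells (-1.33), pericyte-like cells (-0.67) and glial-like cells (-1.01). The *Atf3* difference past 2-fold in D2-*mdx* over DBA thus stood beside a healthy level that was itself 0.41 times that of B10. The index was lowest in DBA as well, at 10222 CPM over myogenic cells against 10582 to 14853 in the others. Within parts of the index DBA was still lower than B10 by -0.73, -0.55 and -0.81.

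*Fosb*, whose protein forms the same dimers as FOS, was set against *Fos* in the same cells, a measure chosen after its values were seen. Myogenic cells held 38.3 (B10) and 40.8 (DBA) *Fosb* UMIs per 100 *Fos* UMIs in the healthy libraries, and 18.8 (*mdx*) and 21.6 (D2-*mdx*) in the dystrophic ones. In each of the 5 classes with 20 cells in all libraries, both healthy libraries lay above both dystrophic ones. The classes share the same 4 libraries and are not replicates. How often other gene ratios split the libraries this way was not counted. The healthy values over those classes ran from 31.2 to 42.8 in B10 and 31.0 to 41.2 in DBA, the dystrophic ones from 13.9 to 20.2 in *mdx* and 17.3 to 22.5 in D2-*mdx*. Pericyte-like cells gave 31.2, 16.95, 31.1 and 19.7 in B10, *mdx*, DBA and D2-*mdx*, and glial-like cells 40.0, 18.3, 37.7 and 20.6.

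The ratio varied less along the index than between healthy and dystrophic libraries. It was at 44.9, 40.1 and 37.1 from low to high part in B10 and 21.4, 17.1 and 19.3 in *mdx*. Among MuSC-like clusters it was highest in the one led by *Gm3336*, *Ryr3* and *Neu1*, which had the lowest *Fos*, at 50.2 and 50.3 in the healthy and 29.8 and 29.4 in the dystrophic libraries. A library-wide source such as free RNA would also carry 1 ratio into every class, and its part was not tested. In the B10 barcodes with under 1000 genes, which were not kept, the ratio was 98.5.

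**Figure D5:**
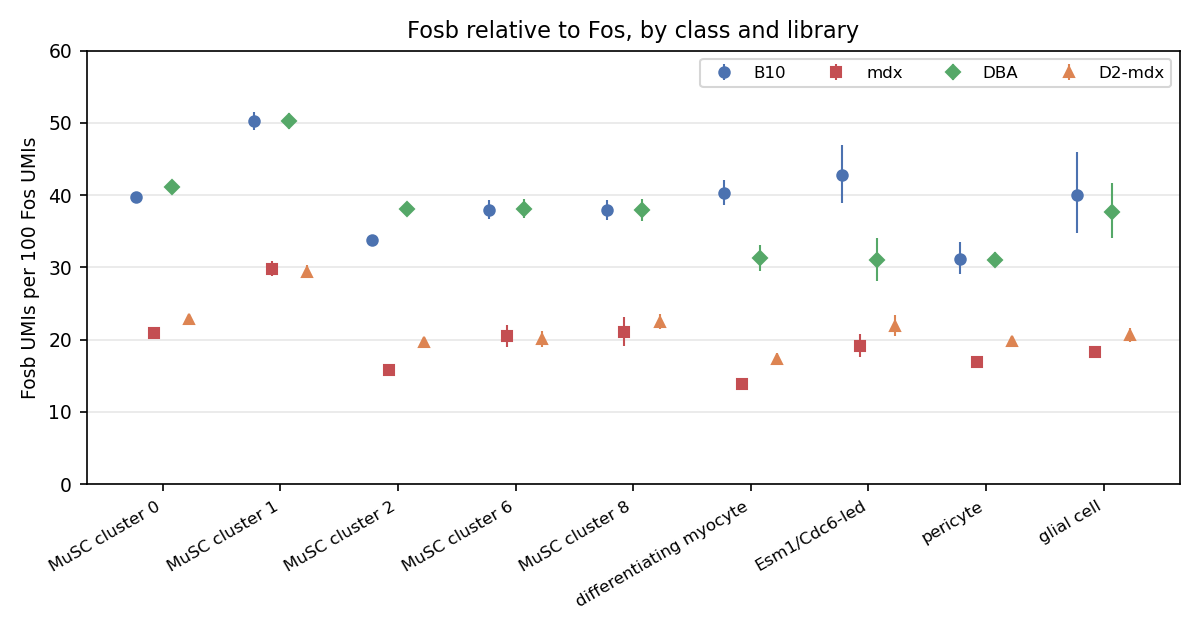
*Fosb* UMIs per 100 *Fos* UMIs (linear axis) in MuSC-like clusters, other myogenic states and non-myogenic types with at least 20 cells in each library, 1 point a library with its 95% exact binomial interval. Both healthy libraries lie above both dystrophic ones in each class, for example 39.7 and 41.2 against 20.9 and 22.9 in MuSC cluster 0.

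The wider pathway was read from lists of its parts, taken by the role of their genes. Of 19 upstream kinases and factors (MAP kinases, their activators, SRF and the ELK factors), 16 were measured in the first pair and 15 in the second. *Elk3*, a repressor partner of SRF, alone passed 2-fold in the first pair, at log2 1.23, and none did in the second. Over all genes 4.70% and 5.80% passed upward and 5.19% and 5.84% downward. The log2 ratios of *Mapk3*, *Mapk8* and *Srf*, named after their values were seen, ran from -0.45 to 0.31 over both pairs. Of the 15 with 10 CPM in every library, 0 followed the index, beside 1.15% of all such genes.

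Among MAP kinase phosphatases, 2 of the 6 genes measured in both pairs were higher in both, beside 3.42% of all genes. *Dusp6*, an ERK-selective phosphatase induced by ERK signalling, rose from 7.95 to 25.2 CPM between B10 and *mdx* and from 7.41 to 37.1 between DBA and D2-*mdx*. *Dusp10* went from 14.5 to 34.5 and from 11.0 to 31.7. *Dusp6* was under 10 CPM in both healthy libraries and entered through the dystrophic ones, which fixes its direction. *Dusp1*, an immediate-early gene, was at log2 -0.06 and 0.40.

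Of genes commonly given as AP-1 targets, 7 of 15 measured in the first pair and 12 of 16 in the second passed the mark. All went upward, and the 7 were higher in both. Over all genes 4.70% and 5.80% passed upward, and 3.42% in both pairs. The median log2 ratio of the measured targets was 0.98 and 1.88. *Spp1*, *Timp1*, *Tgfb1*, *Plaur* and *Ccl2* were under 10 CPM in both healthy libraries, as was *Hbegf* in DBA, and *Ccl2* was measured in the second pair only. These entered through the dystrophic library, which fixes their direction and raises the medians. *Plaur*, at log2 0.98, was itself the median gene of the first pair. *Spp1* (osteopontin) went from 0.0251 CPM, a single UMI, to 52.0 (log2 11.02, 8.54 to 16.32) and from 0.432 to 151 CPM, and *Timp1*, a metalloproteinase inhibitor, from 1.08 to 92.5 and from 1.59 to 103. *Gadd45g* was higher by log2 2.95 and 3.13, *Tgfb1* by 2.37 and 2.47, *Vim* by 2.17 and 2.70 and *Cd44* by 1.40 and 1.99. Several of these are also expressed by other cells, and markers of white blood cells summed to 1.35, 25.4, 6.87 and 96.7 CPM over the myogenic cells of B10, *mdx*, DBA and D2-*mdx*, with 1 of 7 markers at 0 in B10 and none elsewhere. The 5 myofibre genes summed to 30.4, 117, 26.3 and 304 CPM and 4 haemoglobin genes to 275, 460, 298 and 925 in B10, *mdx*, DBA and D2-*mdx*. Their part in the target differences was not tested.

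Of 16 other leucine zipper genes measured in both pairs, 0 were higher in both. *Crem* alone was lower in both, at log2 -1.30 and -1.67. Over all genes 3.42% were higher in both pairs and 3.16% lower. The median of the zipper genes was -0.40 and -0.21. Of the 16 with 10 CPM in every library, *Maff*, *Mafk* and *Cebpb* followed the index, beside 1.15% of all such genes. Of the index genes, 14 of 15 with 10 CPM in every library followed it, as their use in it entails, and 1 of 16 was higher in both pairs (*Ier5*, log2 2.46 and 3.08). *Ier5* was at 8.83 CPM in DBA and entered the second pair through D2-*mdx*, which fixes its direction there. Among 8 heat shock genes *Hspb1*, a small heat shock protein abundant in muscle, alone was higher in both, at 1.39 and 1.23.

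Patterns over 16 sums of library and myogenic state, each library centred, named the genes most alike to each member among 10032. The sums share libraries and depth, so Pearson's r is a description. *Fosb*, *Jun*, *Junb* and *Jund* had each other as their 3 closest genes, at r of 0.99 to 1.00. *Fos* was closest to *Egr1* (0.99), *Btg2* (0.99) and *Dnajb4* (0.99), and *Atf3* to *Dnajb4*, *Sash1* and *Zbtb4* (0.97 to 0.96). *Fosl2* was closest to *Per1*, *Mllt10* and *Klf4* (0.97). *Fosl1* had none of these, and its 3 closest genes included *Tnfrsf12a*, the receptor for TWEAK (0.98), and *Cdc6* (0.98). *Jdp2* had the loosest neighbours, *Serpinb6a* (0.92), *Pcgf2* (0.91) and *Cdkn2c* (0.91).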

How the data were processed

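Sorted satellite cells of 4 mouse strains were measured, 1 library a strain. The deposited matrices hold raw UMI counts per gene and barcode, made by the authors with Cell Ranger 3.0.1 on mm10 according to the submitters' processing notes. Members and gene lists were chosen with earlier results of these data known. The limits on cells were 1000 and 5000 genes and 8% mitochondrial UMIs, and the highest Scrublet scores (2.70% to 5.34% of passing cells) were removed as doublets. Libraries were integrated in Seurat 5.3.0 (2000 features without the members, 30 dimensions) and clustered at resolution 0.1, and myogenic cells again at 0.35, since at 0.2 the DMD-enriched and differentiating cells shared a cluster. A cluster took the class with the highest score over fixed markers, at least 3 of them detected, and a myogenic name other than MuSC also needed a marker among its 10 leading genes. Names were rebuilt here and can differ from those of the study.

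UMIs were summed per library and class and given as CPM with exact Poisson intervals. Ratios used the exact binomial share of the pair of counts, shares of cells Clopper-Pearson intervals. A member passed at 2-fold or more with an interval excluding 1, and genes entered with 10 CPM in a library of the pair. A count of 0 was set to 3 in ratios. Ratio calls were tested on simulated counts. Named genes are the members, *Dmd*, up to 6 genes a list past the mark in both pairs, and 3 genes most alike to each member. Others were named after their values were seen, and some genes are not reported here. edgeR 4.0.16 and DESeq2 1.42.0 gave scaling alternatives only.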

Additional observations from a re-analysis of the deposited data

Results flagged for a closer look

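Both pairs were compared for each member, and *Fos* and *Junb* went opposite ways in the pooled myogenic cells. *Fos* was at log2 -0.13 in *mdx* over B10 and 0.32 in D2-*mdx* over DBA, with neither counting interval including 0. *Junb* was at -0.24 and 0.28. The opposite directions depended on the processing. With at least 500 genes and no upper limit both genes were lower in both pairs, *Fos* at -0.34 and -0.18 and *Junb* at -0.43 and -0.20, and as a mean over cells both were higher, *Fos* at 0.21 and 0.64 and *Junb* at 0.07 and 0.60. With 1 library a strain the difference between the pairs was not tested, and within MuSC-like cells both genes were higher in both pairs, *Fos* by 0.45 and 0.92 and *Junb* by 0.35 and 0.88.

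Barcodes left out of the comparisons also carried the members. In B10, *Fos* was at 3432 CPM in 4739 barcodes with under 1000 genes, whose median mitochondrial share was 71.4%, and at 5085 CPM in 389 barcodes with 1000 to 5000 genes and over 8% mitochondrial UMIs. *Fosb* was at 3380 CPM in the former, 98.5 UMIs per 100 of *Fos*, against 38.2 in the kept cells. *Fosl1* had 0 UMIs in both of these B10 groups. Barcodes above 5000 genes, also left out, held 9 *Fosl1* UMIs in B10 (8.10 CPM) and 326 in *mdx* (37.5 CPM). In DBA they held 60 (12.6 CPM), against 18 in all kept DBA cells, and in D2-*mdx* 878 (39.6 CPM). With at least 500 genes and no upper limit, *Fosl1* in myogenic cells was at log2 4.78 in *mdx* over B10 and 3.45 in D2-*mdx* over DBA.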

How the results depend on the processing

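No member past the mark in a pair changed direction under any of the alternatives run. Below the mark, directions did turn. As a mean over cells of UMIs per 10000, *Fos* (0.21) and *Junb* (0.07) turned in *mdx* over B10, and *Jun* and *Jund* in both pairs. With at least 500 genes and no upper limit, *Fos* (-0.18) and *Junb* (-0.20) turned in D2-*mdx* over DBA, and *Atf3* (-0.14) and *Fosl2* (-0.11) in *mdx* over B10, the last pair of genes also at 5% mitochondrial UMIs (-0.03 and -0.01). In MuSC-like cells *Fos*, *Junb*, *Jun* and *Jund* turned in *mdx* over B10, and *Jun*, *Jund*, *Fosb* (0.05) and *Fosl2* (0.04) in D2-*mdx* over DBA. The cause was not tested. The 2 members past 2-fold in *mdx* over B10 became 1 (*Fosl1*) with the mean over cells of UMIs per 10000 and in MuSC-like cells only. The same held without the DMD-enriched-like cells, where *Fosb* was at -0.87, and *Fos* (0.08) and *Jund* (0.02) turned. In D2-*mdx* over DBA *Jund* turned without the DMD-enriched-like cells (0.01) and without the cycling progenitor-like cells (0.05). The 1 member past it in both pairs became 2 (*Fosl1* and *Fosb*) with at least 500 genes and no upper limit, where *Atf3* no longer passed in D2-*mdx* over DBA (log2 0.55). *Fosl1*, past the mark in both pairs in each of 3 parts of the index, left 0 members with 5 parts and with MuSC-like cells only. Scaling by TMM or DESeq2 size factors, totals without stress genes, 5% mitochondrial UMIs, doublets kept, all cells and, chosen after seeing the data, leaving out the Esm1/Cdc6-led cells kept each pair's members past the mark the same. So did clusterings with members kept, with stress genes left out and, also chosen later, at resolution 0.2 for the 7 members peaking in MuSC-like cells. With no minimum level, 8.69% of all genes passed upward in *mdx* over B10 and 9.67% in D2-*mdx* over DBA. No paired analysis was possible because each strain has 1 library, and for the same reason no replicate could be left out. Depth limits *Fosl1* in the healthy libraries most, with 16 and 18 UMIs, and dystrophy, age and library cannot be told apart.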
